A study of Arabidopsis thaliana with 6 samples.

Results

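The UDP-glycosyltransferases of family 1, named UGT followed by a family number, a subfamily letter and a gene number, were compared between wild-type (Col) and spy-3 roots. A gene was counted as a member if its symbol or a synonym in the annotation had this form and if a probe set of the array was annotated to it alone. The annotation names 64 such genes, and 51 of them, in 12 families, met both conditions, out of 13355 genes that a probe set measures alone. The other 13 UGT genes are not analysed here. This rule uses names and probe sets and not expression, but it was set with earlier results of these data known. Each of the 51 genes had 1 probe set, and the names of all 51 end in the plain suffix that the manufacturer gives to probe sets without shared probes.

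These enzymes move a sugar, most often glucose, from a UDP-sugar onto a small molecule. Their substrates include hormones, phenylpropanoids, flavonoids, defence compounds and foreign chemicals, and the sugar usually makes the product more soluble, less active and ready for storage in the vacuole. Members of a subfamily often lie side by side in the genome as copies of one another, and they can differ in the substrates they accept. In roots the family is known for glucosides of monolignols (the alcohols from which lignin is built), of coumarins and flavonols, and of cytokinins, abscisic acid and auxin.

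RNA came from whole roots of Col seedlings, either wild type or spy-3, a mutant allele of SPINDLY (SPY), which encodes an O-linked sugar transferase of nuclear and cytosolic proteins that represses gibberellin signaling. Seedlings of both genotypes had grown for 7 days on MS agar on vertical plates, without further treatment. Each genotype was measured on 3 Affymetrix ATH1 arrays, and spy-3 is the only mutant allele on these arrays. The replicates are described as biological, but not as independent harvests, so the p-values reflect how far these samples spread. In whole roots, fewer cells of a type and less RNA per cell cannot be told apart.

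The values are array signals on a linear scale, and the median signal of an array was 85.4 to 87.2. The signal of SPY was 258.2, 251.7 and 292.3 in wild type and 244.9, 316.7 and 294.4 in spy-3 (a log2 change, spy-3 over wild type, of 0.09, limma adjusted p = 0.728), a level that does not test the genotype labels. Here and below, a listed gene counts as measured if a probe set is annotated to it alone. The annotation names no gene for 8730 of the 22746 probe sets, so a gene not counted can still be on the array. Of the root and root hair markers, 5 of 24 listed were measured and none was at 0, with PYK10, a beta-glucosidase of roots, at 7671 in wild type and 7601 in spy-3. Of these 5, the root hair expansin genes EXPA7 and EXPA18 fell in spy-3 by 0.44 and 0.29 on the log2 scale (limma adjusted p = 0.00274 and 0.018). EXPA18 did not pass when any 1 of 4 arrays was left out (adjusted p up to 0.0853). AT1G62500, listed as a root tissue marker, was at 56.2, 59.5 and 57.5 in wild type and 19.2, 34.6 and 17.3 in spy-3, without overlap (log2 change -1.36, limma adjusted p = 0.0517). It passed without spy-3 replicate 2 (adjusted p = 0.0206), and in 4 of 8 fits that kept all arrays but changed another setting. The marker AT1G09750 was also lower without overlap (log2 change -0.19, adjusted p = 0.1). All 5 had a negative log2 change, and PYK10 alone overlapped between genotypes, where 11.5% of all probe sets were lower without overlap. The summed signal of the 5 markers was 9681 to 10299 in wild type and 9013 to 10251 in spy-3, and without PYK10, by far the brightest, 2347 to 2431 against 1801 to 1921. Of the green tissue markers, 3 of 11 were measured, and their summed signal was 436.5 to 478.6 in wild type and 293.5 to 326.6 in spy-3, a difference due mostly to the Rubisco activase gene RCA (log2 change -0.57, limma adjusted p = 0.0027). The Calvin cycle genes SBPASE and PRK had mean wild-type signals of 23.4 and 6.6. These markers moved in the same comparison as the UGT genes that fell, and their part in those results was not tested.

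Of the 51 UGT genes, 5 fell in spy-3, 2 rose and 44 did not pass an adjusted p of 0.05 in limma, where the adjustment covered all 22746 probe sets of the array. The lower genes were UGT71C2, UGT72E1, UGT76B1, UGT71C5 and UGT76C2, and the higher genes were UGT78D2 and UGT84A1. The lower genes make up 9.8% of the members, against 3.13% of all probe sets and 2.45% of all genes measured alone, and the higher genes make up 3.92%, against 2.64% and 2.32%. Among the 24 members whose mean log2 signal exceeded 6.42, the median of all probe sets, 5 fell and 1 rose, or 20.8% and 4.17%. Among all probe sets above that median, 5.42% fell and 4.41% rose. The family did not move one way as a whole: 25 members had a negative and 26 a positive log2 change, and the median was 0.03, against 0.02 over all probe sets. With 1 array left out, the median ranged from -0.09 to 0.04 and was negative in 4 of the 6 fits. At an unadjusted p of 0.05, 12 of the 51 members were lower and 5 of the 51 higher, against 9.34% and 9.85% of all probe sets. The share of higher members was close to that of all probe sets, and the share of lower members was above it. These shares describe the members and were not tested against other genes.

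**Figure D1:**
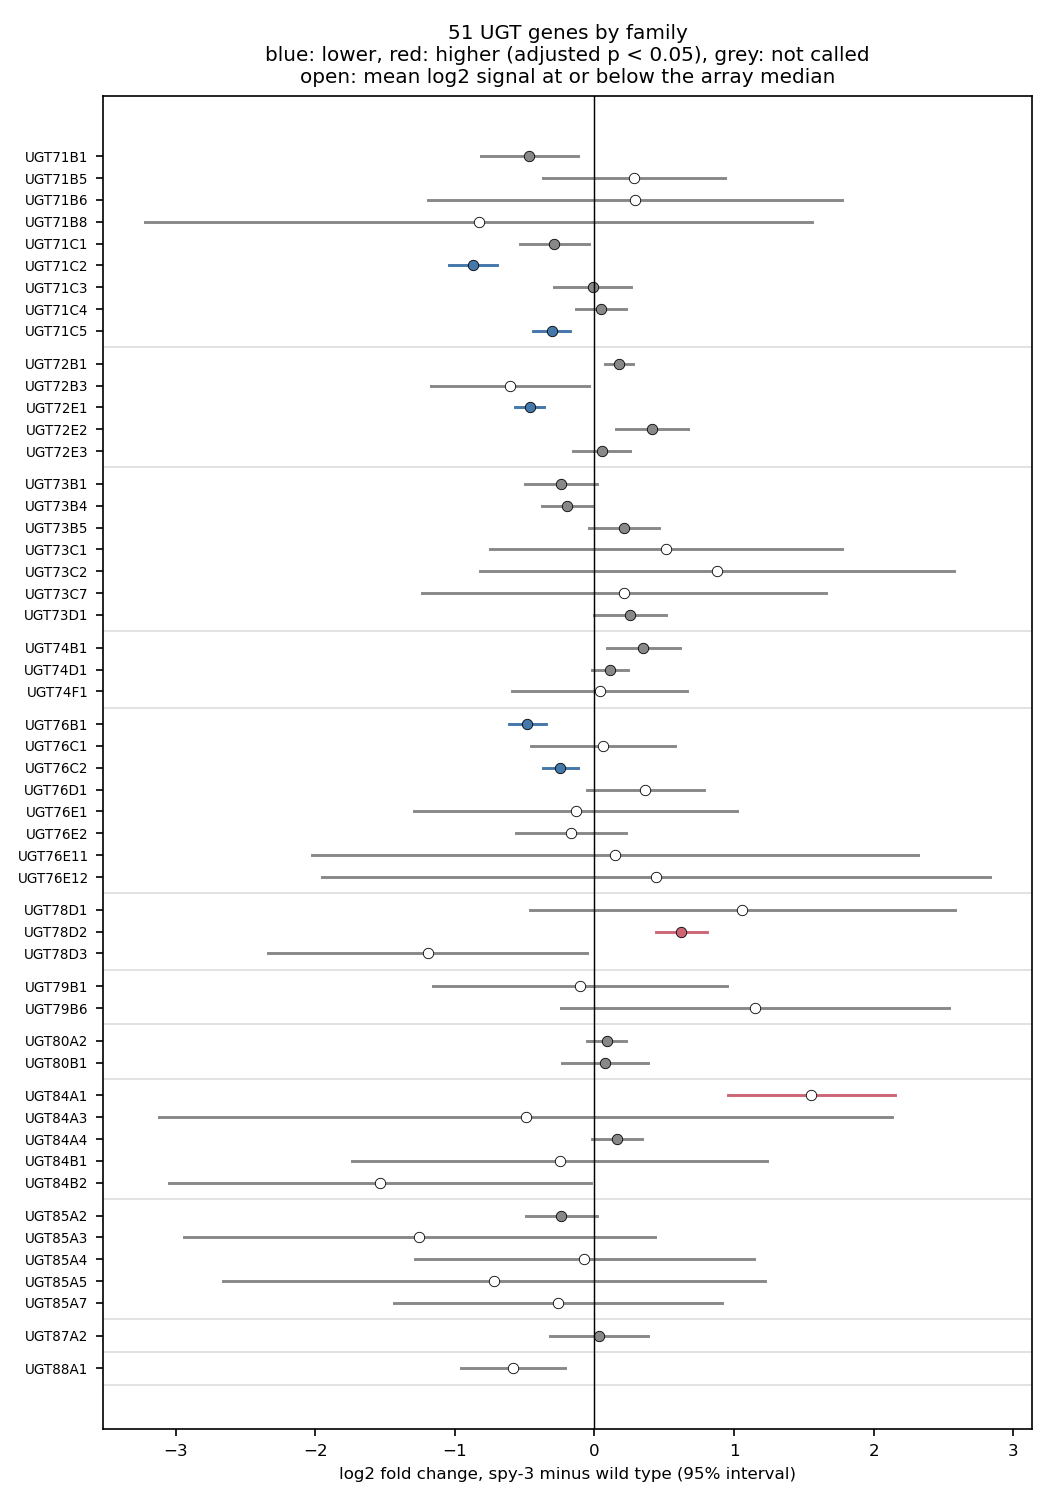
Log2 change (spy-3 minus wild type) with its 95% interval from limma for the 51 UGT genes, ordered by family. Blue marks the 5 lower and red the 2 higher genes, grey marks the 44 that did not pass, and open points mark genes with a mean log2 signal at or below 6.42, whose intervals are wide.

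The precision differed strongly between members. The standard error (SE) of the log2 change was 0.042 to 0.15 for the 24 members above the median signal and 0.15 to 1.09 for the 27 at or below it, where the medians were 0.08 and 0.52. Fold changes of the dimmer members ranged from -1.53 to 1.56 on the log2 scale, and only 1 of these 27, UGT84A1, passed. Of the 24 brighter members, 22 changed by less than 1.5-fold in either direction. Their median absolute log2 change was 0.236, against 0.105 for all probe sets above the median, with a median SE of 0.08 against 0.075. In 11 members every spy-3 array lay below every wild-type array, and in 5 every spy-3 array lay above. These are 21.6% and 9.8% of the members, against 11.5% and 12.7% of all probe sets. Of the brighter members, 7 were lower and 4 higher without overlap, where 15.6% and 16.8% of all probe sets above the median were.

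**Figure D2:**
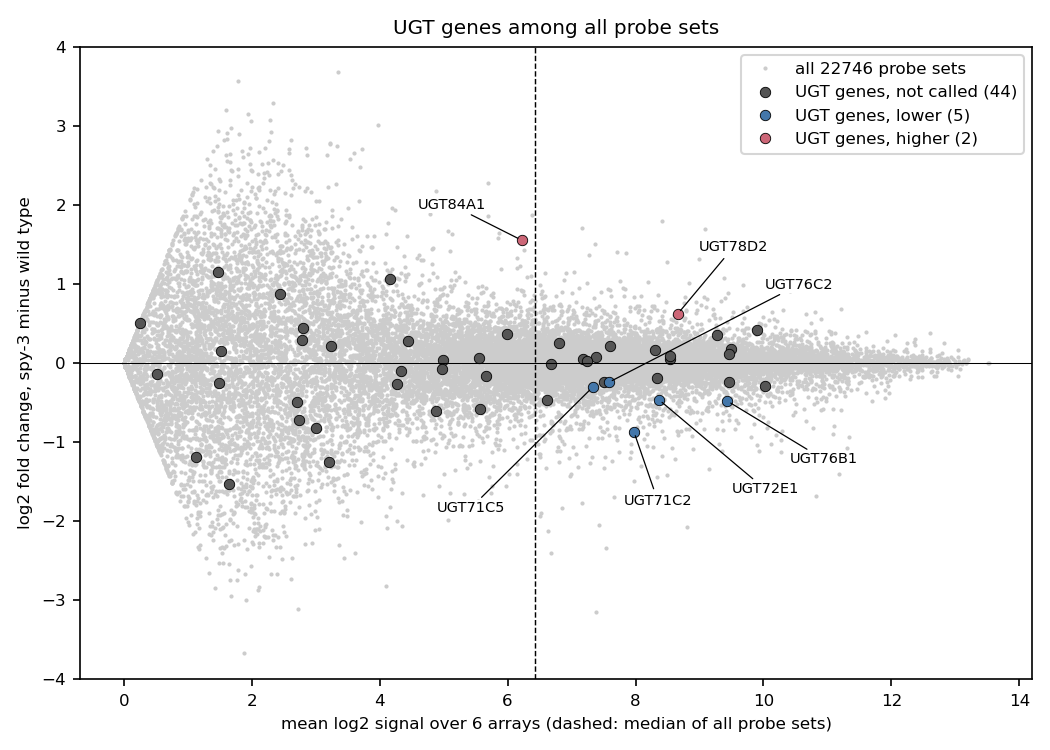
Log2 change (spy-3 minus wild type) against the mean log2 signal over the 6 arrays, for the 51 UGT genes over all 22746 probe sets in light grey. The dashed line marks the median signal of 6.42, and 6 of the 7 called UGT genes lie to its right.

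The largest decrease among the 5 lower members was that of UGT71C2 (AT2G29740). Its signals were 311.2, 353.9 and 357.5 in wild type and 184.4, 178.9 and 195.4 in spy-3. The lowest wild-type array thus lay well above the highest spy-3 array. The wild-type mean of 340.9 ± 25.8 (SD, n = 3) fell in spy-3 to 186.2 ± 8.4 (SD, n = 3), a log2 change of -0.87 (SE 0.07, limma adjusted p = 0.00186), or 1.83-fold lower. UGT71C2 was the only lower member past thresholds of 1.5-fold and an adjusted p of 0.01, which 0.80% of all probe sets did in that direction. It kept its call when each array was left out in turn (adjusted p from 0.00914 to 0.0205).

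Enzymes that act on monolignols and other phenylpropanoids moved in both directions. Of 13 listed UGT genes with such substrates 9 were measured, of which UGT72E1 fell, UGT84A1 rose and 7 did not pass, with a median log2 change of 0.05. UGT72E1 (AT3G50740) encodes a glucosyltransferase known for the aldehydes of monolignols. Its signals were 401.8, 384.5 and 376.0 in wild type and 278.0, 286.2 and 278.4 in spy-3, without overlap and with little spread in spy-3. The wild-type mean of 387.4 ± 13.1 (SD, n = 3) fell in spy-3 to 280.9 ± 4.62 (SD, n = 3), a log2 change of -0.46 (SE 0.04, limma adjusted p = 0.00284). The call was kept when each array was left out in turn (adjusted p from 0.0131 to 0.0247).

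The other genes of the UGT72E subfamily did not fall with it. UGT72E2, which encodes a main monolignol glucosyltransferase of roots, had signals of 821.2, 761.4 and 917.3 in wild type and 957.3, 1170.1 and 1207.3 in spy-3. All spy-3 arrays were above all wild-type arrays, but the difference missed the threshold (log2 change 0.41, SE 0.11, limma adjusted p = 0.091). It passed without spy-3 replicate 1 (adjusted p = 0.0434), with 16 added to the signals (0.0435), with robust variances (0.0282) and with the dimmest probe sets removed (0.0127). UGT72E3, which accepts similar substrates, had a log2 change of 0.05 with a 95% interval of -0.15 to 0.26. The log2 difference between UGT72E1 and UGT72E2 within an array was -1.1 on average in wild type and -1.98 in spy-3. Its 3 values of each genotype did not overlap, and the two-sided exact permutation p was 0.1, the smallest that 3 arrays against 3 can give.

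In the UGT72B subfamily, UGT72B1, which acts on monolignols and chlorinated phenols, had tightly grouped signals of 680.5, 681.9 and 672.3 in wild type and 806.8, 755.8 and 739.3 in spy-3. The genotypes did not overlap, and the log2 change of 0.18 (SE 0.04) had an adjusted p of 0.0695 from limma, the lowest among the members that did not pass. UGT72B3 was dim, at 32.0, 42.1 and 35.7 in wild type and 29.4, 22.3 and 20.9 in spy-3, and its log2 change of -0.60 did not pass (adjusted p = 0.229). In 4 of the 5 measured UGT72 genes the genotypes did not overlap, with 2 lower and 2 higher in spy-3, and only UGT72E1 passed. Of all probe sets, 11.5% were lower and 12.7% higher without overlap, and of those above the median signal 15.6% and 16.8%.

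UGT84A1 (AT4G15480), which encodes an enzyme that makes glucose esters of hydroxycinnamic acids, had the largest called change of the family. Its signals were 30.4, 44.6 and 60.6 in wild type and 128.1, 135.3 and 120.3 in spy-3. The genotypes did not overlap, although the wild-type arrays spread over a large range. The wild-type mean of 45.2 ± 15.1 (SD, n = 3) rose in spy-3 to 127.9 ± 7.5 (SD, n = 3), or 2.94-fold (log2 change 1.56, 95% interval 0.96 to 2.15, limma adjusted p = 0.0188). The log2 change was 1.26 with 16 and 0.82 with 64 added to the signals. The direction was the same in every setting run, but the call was lost without wild type replicate 2 (adjusted p = 0.0838) and without spy-3 replicate 1, 2 or 3 (adjusted p = 0.0698, 0.0885 and 0.0792). It was also lost in limma without the mean-variance trend (adjusted p = 0.0596), by an analysis of variance of each probe set (adjusted p = 0.102), and with the replicate number as a block (adjusted p = 0.0572).

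UGT84A4, a close relative of UGT84A1, had signals of 297.4, 313.4 and 283.8 in wild type and 303.9, 340.9 and 357.4 in spy-3, which overlapped (log2 change 0.16, limma adjusted p = 0.302). UGT84A3 was near the bottom of the scale, from 0.6 to 13.0 over the 6 arrays, so that its log2 change had a 95% interval of -3.12 to 2.13. UGT71C1, which accepts phenylpropanoids in vitro, had signals of 1216.4, 1270.4 and 982.0 in wild type and 993.7, 888.7 and 945.2 in spy-3. Wild type replicate 3 lay among the spy-3 arrays. The log2 change of -0.29 did not pass (limma adjusted p = 0.191) but passed without that array (adjusted p = 0.0358). Of the enzymes that make the phenylpropanoid and coumarin substrates, 6 of 24 listed genes were measured, of which 1 fell and none rose. The gene that fell was REF1, a hydroxycinnamaldehyde dehydrogenase, with a wild-type mean of 1424 ± 42.5 (SD, n = 3) and a spy-3 mean of 1102 ± 83.9 (SD, n = 3) (limma adjusted p = 0.0215). REF1 stayed below the threshold in only 1 of the 6 fits with an array left out (adjusted p from 0.0332 to 0.0915). F6'H1, which commits the pathway to scopoletin, had mean signals of 1005 and 824.1 (log2 change -0.29, adjusted p = 0.0735). F6'H1 passed in 1 of the 6 fits with an array left out (adjusted p = 0.0499). It also passed in 5 of the 9 fits that kept all arrays but changed another setting. The dim AT3G12900 was at 14.5, 24.9 and 14.0 in wild type and 1.8, 2.2 and 16.2 in spy-3, overlapping through spy-3 replicate 3 (log2 change -2.10, adjusted p = 0.267), and passed without that array (adjusted p = 0.0392). CCR2, of the lignin branch, had a log2 change of 0.18 (adjusted p = 0.347). At an unadjusted p of 0.05, 2 of the 6 were lower and none higher, both in limma and by the analysis of variance. Of all probe sets, 9.34% were lower and 9.85% higher at that p in limma.

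Among enzymes of flavonols and anthocyanins, 4 of 9 listed were measured and UGT78D2 rose. UGT78D2 (AT5G17050) encodes the flavonoid 3-O-glucosyltransferase, which adds glucose to flavonols and anthocyanidins. Its signals were 309.3, 348.3 and 321.2 in wild type and 466.3, 548.4 and 494.2 in spy-3. Every spy-3 array was above every wild-type array by more than the spread within either genotype. The wild-type mean of 326.3 ± 20.0 (SD, n = 3) rose in spy-3 to 503.0 ± 41.7 (SD, n = 3), or 1.54-fold (log2 change 0.62, SE 0.07, limma adjusted p = 0.00688). It was the only higher member past both thresholds (1.5-fold, adjusted p 0.01), against 0.435% of all probe sets. The call was kept when each array was left out in turn (adjusted p from 0.017 to 0.0433), but not by the analysis of variance (adjusted p = 0.0559).

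Its relatives were dim. UGT78D1, the flavonol 3-O-rhamnosyltransferase, had signals of 20.2, 4.6 and 20.6 in wild type and 31.5, 26.7 and 20.6 in spy-3 (log2 change 1.06, 95% interval -0.46 to 2.58). UGT78D3, a flavonol arabinosyltransferase, was at 2.2 to 4.6 in wild type and 0.8 to 1.9 in spy-3 (log2 change -1.19, limma adjusted p = 0.241). UGT79B1, which adds xylose to anthocyanins, was at 15.2, 27.3 and 22.2 in wild type and 29.8, 11.5 and 21.7 in spy-3, and its log2 change of -0.10 changed sign when wild type replicate 2 or spy-3 replicate 2 was left out. UGT79B6, outside the list, which extends flavonol glucosides in pollen, was at 1.7 to 2.0 in wild type and 1.9 to 7.4 in spy-3 (adjusted p = 0.35). Of 11 listed genes of flavonoid synthesis only DFR, the dihydroflavonol reductase, was measured, and it was dim in both genotypes, from 4.5 to 13.7 over the 6 arrays (adjusted p = 0.821).

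**Figure D3:**
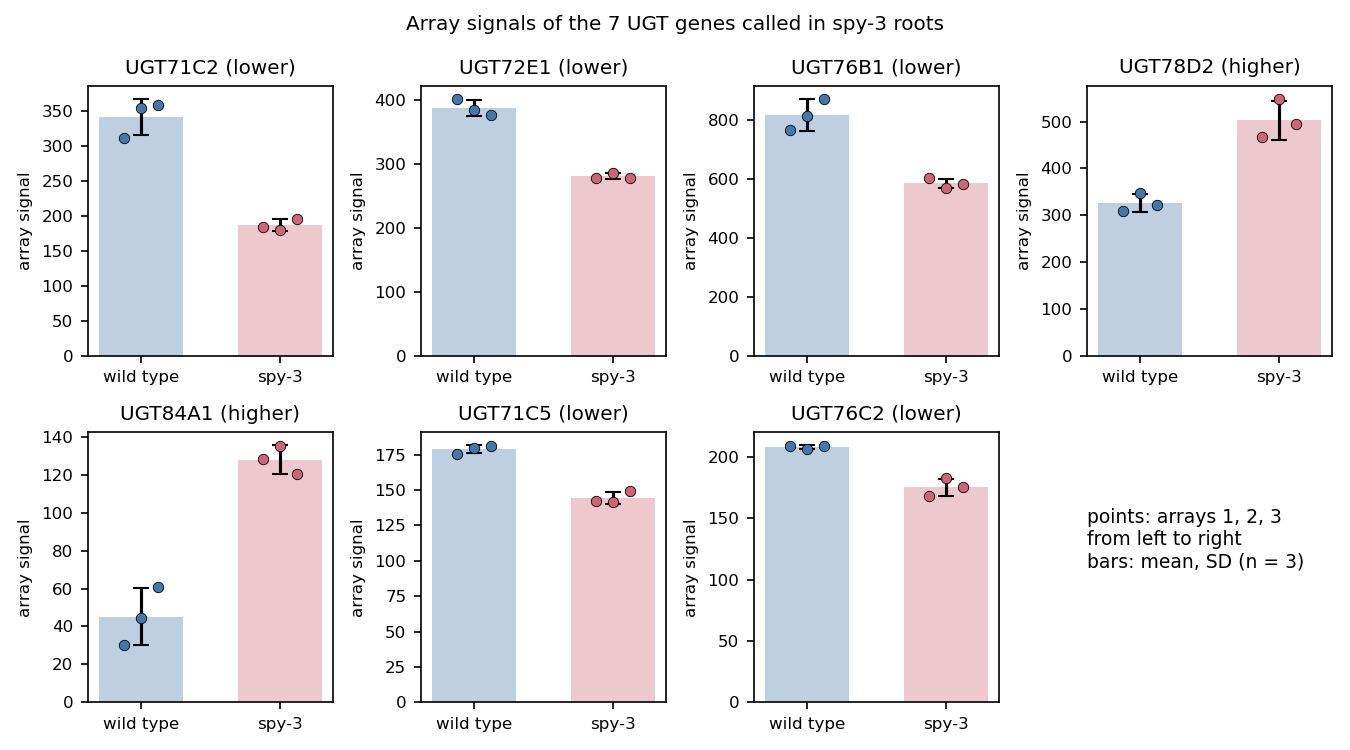
Array signals of the 7 called UGT genes, in order of their p-values, with bars at the mean and error bars of 1 SD (n = 3 per genotype). In every panel the 3 wild-type arrays and the 3 spy-3 arrays do not overlap, as for UGT71C2 at 311.2 to 357.5 against 178.9 to 195.4.

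Of 8 listed UGT genes tied to salicylate, N-hydroxypipecolate or defence, 6 were measured, of which UGT76B1 fell, none rose and 5 did not pass. UGT76B1 (AT3G11340) glucosylates isoleucic acid, salicylate and N-hydroxypipecolate, and is known as a brake on plant immunity that is strongly expressed in roots. Its signals were 765.5, 814.6 and 871.9 in wild type and 601.9, 570.5 and 584.2 in spy-3, without overlap. The wild-type mean of 817.3 ± 53.3 (SD, n = 3) fell in spy-3 to 585.5 ± 15.7 (SD, n = 3), a log2 change of -0.48 (SE 0.05, limma adjusted p = 0.00586), or 1.39-fold lower. The call was kept when each array was left out in turn (adjusted p from 0.0166 to 0.043).

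The salicylate glucosyltransferase gene UGT74F1 was dim, at 28.9, 29.6 and 35.7 in wild type and 35.9, 23.5 and 39.2 in spy-3 (limma adjusted p = 0.964). UGT71C3, which glucosylates methyl salicylate, had means of 103.2 ± 4.63 (SD, n = 3) and 102.9 ± 13.4 (SD, n = 3), and its log2 change had a 95% interval of -0.29 to 0.27. UGT76D1, which acts on dihydroxybenzoic acids, had a log2 change of 0.37 (adjusted p = 0.322). UGT73B4 and UGT73B5, adjacent genes that respond to pathogens and oxidative stress, differed in sign. UGT73B4 was at 339.4, 359.0 and 334.3 in wild type and 332.4, 277.5 and 294.6 in spy-3 (log2 change -0.19, adjusted p = 0.225), and UGT73B5 was at 168.7, 174.1 and 197.7 against 223.0, 222.7 and 182.3 (log2 change 0.21, adjusted p = 0.339). Neither difference passed, and UGT73B5 overlapped between genotypes through spy-3 replicate 3. Of 19 listed genes of salicylate and N-hydroxypipecolate 1 was measured, AT5G52810, with means of 76.5 and 94.2 (log2 change 0.30, adjusted p = 0.16).

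The hormone-conjugating members were represented by small groups, each with at most 1 call. Of 6 listed genes for abscisic acid 4 were measured, and UGT71C5 (AT1G07240), which makes the glucose ester of abscisic acid, fell. Its signals were 175.5, 179.7 and 180.8 in wild type and 142.4, 141.6 and 149.4 in spy-3, which did not overlap. The log2 change was -0.31 (SE 0.05, limma adjusted p = 0.0275), or 1.24-fold lower. The call was lost without any 1 of the 6 arrays (adjusted p from 0.0575 to 0.103), while the log2 change stayed between -0.33 and -0.29. UGT73B1, which accepts abscisic acid in vitro, was at 210.7, 184.9 and 197.1 in wild type and 190.4, 146.6 and 168.0 in spy-3 (log2 change -0.24, adjusted p = 0.30). UGT71B6 and UGT71B8 had mean signals under 12 in both genotypes and were not called (adjusted p = 0.856 and 0.719).

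Of 5 listed genes for cytokinin 3 were measured, and UGT76C2 (AT5G05860), a cytokinin N-glucosyltransferase, had the smallest change of the called genes. Its signals were 208.7, 206.3 and 209.2 in wild type and 168.7, 182.6 and 175.6 in spy-3. The genotypes did not overlap, and the wild-type arrays were nearly equal (SD 1.55). The log2 change of -0.25 (SE 0.05) had an adjusted p of 0.0499 from limma. The call was lost without any 1 of the 6 arrays (adjusted p from 0.0683 to 0.146), with median centring (adjusted p = 0.0578), and under 7 further alternatives. Its neighbour UGT76C1, with the same activity, had signals of 54.5, 41.0 and 42.8 in wild type and 60.7, 41.0 and 43.8 in spy-3 (log2 change 0.06, 95% interval -0.45 to 0.58). UGT73C1, which O-glucosylates zeatin, was at 0.4 to 2.9 on all arrays, with 5 of the 6 values under 1.

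Of 6 listed genes for auxin 3 were measured, and none was called by limma or by the analysis of variance (at an unadjusted p of 0.05, limma had 1 lower and the analysis of variance none). UGT74D1, which glucosylates auxin and its oxidized form, had signals of 708.1, 663.2 and 658.9 in wild type and 777.4, 724.2 and 694.2 in spy-3, and its log2 change of 0.11 had a 95% interval of -0.02 to 0.24. UGT84B1 and UGT84B2 had mean signals under 6. The brassinosteroid list had no measured member. UGT74B1, the thiohydroximate glucosyltransferase of glucosinolate synthesis, was at 606.7, 542.2 and 494.5 in wild type and 770.0, 721.2 and 608.8 in spy-3. The lowest spy-3 array was just above the highest wild-type array, and the log2 change of 0.35 (SE 0.11) did not pass (limma adjusted p = 0.14). It passed with the replicate number as a block (adjusted p = 0.0345) and with the dimmest probe sets left out (adjusted p = 0.033). BCAT4, an enzyme of methionine-derived glucosinolates, was the only 1 of 24 listed glucosinolate genes measured, with means of 152.9 and 150.4 (adjusted p = 0.944).

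The sterol glucosyltransferase genes UGT80A2 and UGT80B1, whose products modify membrane sterols, were not called. UGT80A2 was at 361.0, 345.9 and 380.6 in wild type and 361.3, 397.4 and 397.8 in spy-3, and its log2 change of 0.09 had a 95% interval of -0.05 to 0.23. That of UGT80B1 was 0.08 (95% interval -0.23 to 0.38). Neither passed an unadjusted p of 0.05 in limma or by the analysis of variance.

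The remaining members have broad or little-known substrates. In UGT71, UGT71C4 was at 383.0, 388.5 and 325.4 in wild type and 377.5, 378.6 and 374.4 in spy-3 (log2 change 0.05, 95% interval -0.13 to 0.22). UGT71B1 was lower in all spy-3 arrays, at 84.2, 72.1 and 95.9 against 113.3, 102.9 and 131.5 in wild type, but did not pass (log2 change -0.47, limma adjusted p = 0.139). It passed with the dimmest probe sets left out (limma adjusted p = 0.0477). UGT71B5 had means of 19.9 and 24.2 (adjusted p = 0.639). Of the 9 measured UGT71 genes, 2 fell and none rose, and the median log2 change was -0.29.

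In UGT73, none of 7 genes was called by limma or by the analysis of variance, and at an unadjusted p of 0.05 limma had 1 lower and the analysis of variance none. UGT73D1 was at 111.5, 96.1 and 99.8 in wild type and 132.6, 109.1 and 125.6 in spy-3, overlapping through spy-3 replicate 2 (log2 change 0.25, limma adjusted p = 0.261). UGT73C2 and UGT73C7 had mean signals under 12. In UGT76, the 4 measured UGT76E genes had log2 changes from -0.17 to 0.44, and UGT76E2, the only one of them with a mean signal above 12, was at 52.6, 46.9 and 61.8 in wild type and 52.7, 46.6 and 43.9 in spy-3 (adjusted p = 0.653).

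In UGT85, the log2 changes of all 5 measured genes were negative (-1.25 to -0.07), but none was called, and none passed an unadjusted p of 0.05 in limma or by the analysis of variance. UGT85A2 was at 740.1, 868.8 and 704.9 in wild type and 736.4, 596.0 and 632.9 in spy-3. Spy-3 replicate 1 lay among the wild-type arrays (log2 change -0.24, limma adjusted p = 0.299). The other 4 genes were dim, with signals from 2.0 to 50.5. UGT87A2, which is known for a role in flowering time, was at 165.3, 137.4 and 146.1 in wild type and 159.8, 124.5 and 177.7 in spy-3, and its log2 change of 0.03 changed sign when wild type replicate 2, spy-3 replicate 1 or spy-3 replicate 3 was left out. UGT88A1, the only measured member of its family, was at 56.5, 53.5 and 64.1 in wild type and 35.3, 42.4 and 38.4 in spy-3. The genotypes did not overlap, but the log2 change of -0.58 did not pass (SE 0.15, limma adjusted p = 0.0928). UGT88A1 passed with the dimmest probe sets left out (limma adjusted p = 0.0346).

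The position of the members in the genome was not used to choose them. With at most 2 other protein-coding genes between neighbours, 31 of the 51 members fell into 13 groups of adjacent UGT genes. Of the 7 called genes 5 lie in such groups, each in a different one, and no group held 2 called genes. The groups were UGT71C5 with UGT71C4 and UGT71C3, UGT71C2 with UGT71C1, UGT84A1 with UGT84A3 and UGT84A4, UGT76C2 with UGT76C1, and UGT78D2 with UGT78D3. UGT72E1 and UGT76B1 had no measured UGT neighbour.

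A call in 1 neighbour and none in the next does not show that they differ, so the log2 difference between neighbours was compared within arrays. The difference between UGT71C2 and UGT71C1 was -1.76 on average in wild type and -2.34 in spy-3, and that between UGT71C5 and UGT71C4 was -1.03 and -1.38. Between UGT84A1 and UGT84A4 it was -2.78 in wild type and -1.38 in spy-3. In each of these pairs the genotypes did not overlap (two-sided exact permutation p = 0.1, the smallest possible), nor in UGT78D3 with UGT78D2, where UGT78D3 was dim. The differences between UGT76C2 and UGT76C1 overlapped (exact p = 0.3), as did those between UGT84A1 and UGT84A3 (exact p = 0.2). Of all 24 pairs within the 13 groups, 7 did not overlap, while 21.7% of all pairs of probe sets on the array did not. With both genes above the median signal there were 5 pairs, of which 4 did not overlap, against 34.9% of such pairs on the array. Most of these 4 hold UGT71C5 or UGT71C2, which were called in the same data.

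**Figure D4:**
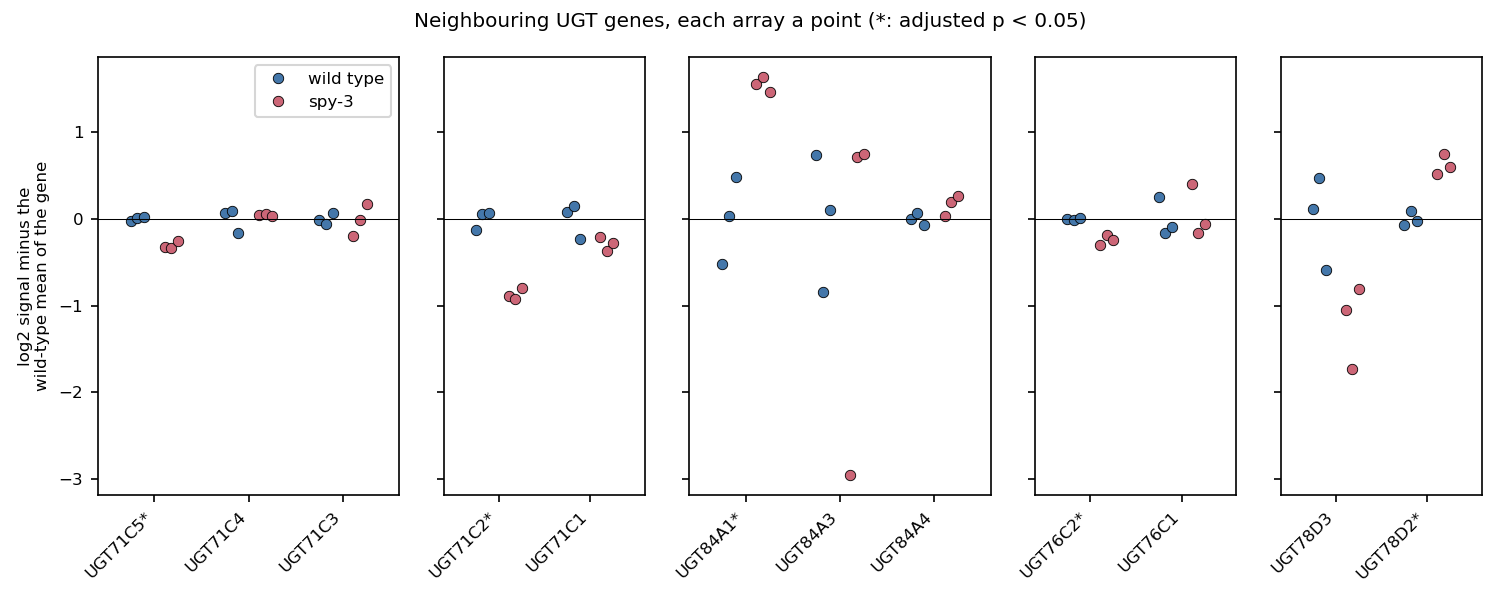
Log2 signals of neighbouring UGT genes, each array as a point, after subtraction of the wild-type mean of the gene, for the 5 groups with a called gene (marked with an asterisk). UGT71C2 changed by -0.87 against -0.29 for UGT71C1, and UGT84A1 by 1.56 against 0.16 for UGT84A4, while UGT84A3, with signals between 0.6 and 13.0, spreads over the widest range.

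Within subfamilies, 16 pairs of genes had both members above the median signal, in UGT71C, UGT72E and UGT73B. In 12 of these the within-array difference did not overlap between genotypes, which held for 34.9% of all pairs of probe sets above the median. The 16 pairs reuse the same 11 genes, so they are not independent. Most of the 12 hold UGT71C2, UGT71C5 or UGT72E1, which were called in the same data, so their count in part repeats those calls. Each of the 12 pairs without overlap had an exact permutation p of 0.1, or 0.133 after Benjamini-Hochberg adjustment over the 16 pairs. This number of arrays cannot bring either value lower than 0.1. The pairs that overlapped had an exact permutation p from 0.2 to 0.9. In UGT71C, the pairs that overlapped were UGT71C1 with UGT71C3, UGT71C1 with UGT71C5, and UGT71C3 with UGT71C4. In UGT73B the overlapping pair was UGT73B1 with UGT73B4.

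Genes that supply the sugar donor or are listed for a response to foreign chemicals were measured only in part. Of 19 listed genes of UDP-sugar supply 1 was measured, USP, a UDP-sugar pyrophosphorylase, with means of 547.0 ± 21.5 (SD, n = 3) and 601.5 ± 23.7 (SD, n = 3) (log2 change 0.14, limma adjusted p = 0.18). Of 16 listed genes of the xenobiotic response 3 were measured. None was called by limma in the main setting or by the analysis of variance. At an unadjusted p of 0.05, both had 1 lower and 1 higher. The glutathione transferase gene GSTU25 had means of 1944 and 1571 (log2 change -0.31, adjusted p = 0.0649), and the alternative NADH dehydrogenase gene NDB2 had means of 1354 and 1579 (log2 change 0.22, adjusted p = 0.0603). In the 9 fits that kept all arrays but changed another setting, GSTU25 passed in 5 and NDB2 in 4. Neither passed with an array left out. AER, an alkenal reductase gene, had a log2 change of -0.34 (adjusted p = 0.539).

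The firmness of the calls differed among the 7 genes. UGT71C2, UGT72E1 and UGT76B1 passed in all 6 fits with an array left out and in all 9 other fits. UGT78D2 passed in all 6 and in 8 of 9, UGT84A1 in 2 of 6 and 6 of 9, UGT71C5 in none of 6 and 7 of 9, and UGT76C2 in none of 6 and 1 of 9. No called gene changed direction in any of these fits.

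**Figure D5:**
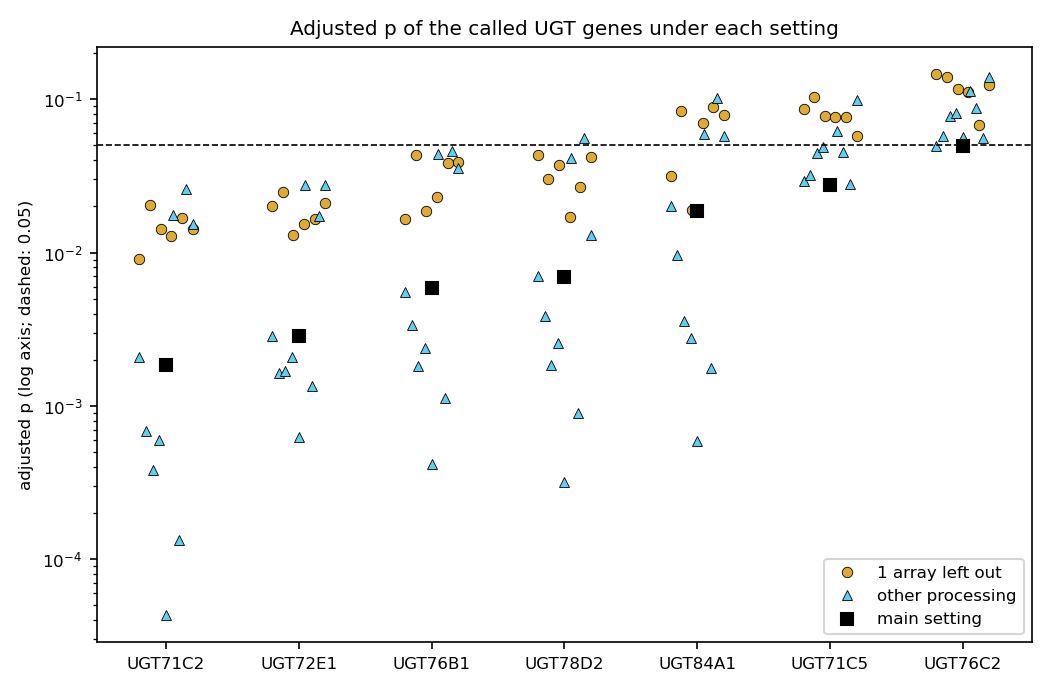
Adjusted p (log axis) of the 7 called UGT genes in the main setting (squares), with 1 array left out (circles) and under the other fits (triangles), with the threshold of 0.05 as a dashed line. All points of UGT71C2, UGT72E1 and UGT76B1 lie below the line, while all circles of UGT71C5 and UGT76C2 lie above it.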

How the data were processed

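Whole-root RNA of 3 wild-type and 3 spy-3 samples was hybridised to Affymetrix ATH1 arrays. The deposited values are linear signal intensities. The submitters' processing notes name MAS5 as the tool the authors used. Its version, its settings and the detection calls were not given in the sources used here. The arrays had been scaled: their means, trimmed of 2% at each end, were 248.2 to 248.3. Of the values of an array, 4.48% to 6.21% were under 1. These were set to 1, all values were converted to log2, and no other normalization or filter was applied. The arrays give no read depth, and their number limits the precision.

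The genotypes were tested by limma (version 3.58.1, under R 4.3.3; moderated variances that follow the mean signal), and p-values were adjusted by Benjamini-Hochberg across the 22746 probe sets. The test was checked on simulated data. Neighbouring genes were compared by exact permutation tests. Python 3.11.15 with pandas 2.3.3 and scipy 1.17.1 made the tables. Gene names came from the platform annotation and the RefSeq gene table (TAIR10.1), which also gave the gene order. It held the locus of 13436 among 13513 single-gene probe sets. The 503 probe sets with several genes and 8730 without a listed gene entered the fit unnamed.

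The members and gene lists were chosen with earlier results of these data known. Values per array are given for every called member, the brightest member of each family, and the 6 further members above the median signal with the largest absolute log2 fold change. Other members given by array were chosen after their values were seen. Of other lists, up to 4 genes of lowest adjusted p are named, and PYK10 was added after its values were seen. The methods name an analysis of variance and cite another study for its form. As an alternative, it was run on each probe set alone. Further alternatives left out each array in turn or the 40% dimmest probe sets, added 16 or 64 to the signals, centred arrays on their median or made them equal by quantiles, took the replicate number as a block, changed the thresholds, and ran limma robustly or with no trend.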

Additional observations from a re-analysis of the deposited data

How the results depend on the processing

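The count of 5 lower UGT genes was 3 in limma without the trend and 3 with the replicate block. It was 1 past 1.5-fold and an adjusted p of 0.01, 12 at an unadjusted p of 0.05, and 3 to 4 with 1 array left out. The count of 2 higher genes was 4 after the 40% dimmest probe sets were removed, 1 without the trend, 0 by the analysis of variance (4 at an unadjusted p of 0.05), 1 at the fold threshold, 5 at an unadjusted p, and 1 to 2 with 1 array left out. That removal kept 29 of the 51 members. The cause of the other differences was not tested. All other alternatives gave counts within 1.5 times the reported ones. Using all probe sets of a gene, or names with the prefix AT, changed nothing, because each member had 1 probe set and no gene was added. With 1 array left out, the log2 fold change of UGT87A2 ranged from -0.0806 to 0.176 and that of UGT79B1 from -0.408 to 0.279. For the 7 called genes, 75 of 105 alternative values kept the call and 30 lost it, and none changed direction. The 16 other genes counted here are the uncalled ones that the rule for values per array selects. Of their 239 alternative values, 225 kept both their direction and their side of the threshold, 9 passed, and 5 changed sign without passing. The replicate numbers are shared between genotypes, but same-numbered arrays did not deviate together throughout (correlations of 0.18, -0.15 and 0.18), and not every array correlated best with its own number. The numbers were therefore not taken as pairs. With the replicate block, 3 genes were lower and 2 higher, and UGT71C5, UGT76C2 and UGT84A1 lost their calls while UGT74B1 passed. For dim members, signals near the floor limit what can be seen: 5 members had at least 1 array under 1.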
